A study of Mus musculus with 4 samples.

Results

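Astrocytes of the mouse brain were taken from 4 single-cell RNA-seq libraries, a sham library and libraries made 1, 3 and 7 days after temporary middle cerebral artery occlusion (tMCAO), an ischemic stroke followed by reperfusion. They were chosen by a marker rule, which found 455 members among 54754 kept cells. A cell was kept when it held 200 to 6000 genes and at most 10% of its unique molecular identifiers (UMIs, counted RNA molecules) came from mitochondrial genes. A member held a UMI of at least 3 of 5 astrocyte genes (Gja1, Gjb6, Aqp4, F3 and Slc1a3), of at most 1 of the 4 ependymal genes Ccdc153, Tmem212, Foxj1 and Rarres2, of at most 1 of Prg4, Nov and Slc47a1, and none of Mog or Pdgfra, which mark oligodendrocytes and their precursors. These genes chose the cells, so their levels are a description and no finding.

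The mice were male, 8 weeks old and, by the methods of the study, of the strain C57/BL6. In the 3 tMCAO groups a filament closed the right middle cerebral artery and was then withdrawn, and the ipsilateral hemisphere was taken on day 1, 3 or 7. Sham mice went through the same surgery without the occlusion, and the day on which their hemisphere was taken was not given in the sources used here. All brains were perfused, digested with papain and freed of myelin on Percoll. Each group was 1 library, with 69392755 to 104023002 UMIs before filtering, and how many mice it held was not given. No test between conditions was therefore possible, the intervals below are exact 95% intervals for counting error only, and the days share the sham library as their reference. A difference between the libraries and a difference between mice or cell preparations cannot be told apart.

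Astrocytes clear glutamate and potassium from around synapses, move water through aquaporin channels at their endfeet, supply neurons with lactate and cholesterol, and secrete proteins that act on synapses. After an injury they enter a reactive state, in which the intermediate filament proteins GFAP and vimentin accumulate and a border forms around the lesion. Cytokines of the interleukin-6 family, which signal through gp130 and the transcription factor STAT3, are a known route into that state, and reactive genes were earlier sorted into pan-reactive genes and sets called A1, after inflammation, and A2, after ischemia.

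The members made up 0.687% of kept cells in the sham library (70 of 10193, interval 0.536 to 0.867%), 1.35% on day 1 (226 of 16714, 1.18 to 1.54%), 0.965% on day 3 (109 of 11298, 0.793 to 1.16%) and 0.302% on day 7 (50 of 16549, 0.224 to 0.398%). The day 1 share was 1.97 times that of sham (1.5 to 2.61), the day 3 share 1.40 times (1.03 to 1.92) and the day 7 share 0.440 times (0.3 to 0.642). The order was day 1, day 3, sham and day 7, and of neighbours in that order the intervals of day 3 and sham overlap. A share of kept cells also moves with the number of all other cells: the other cells of the 3 tMCAO libraries held 4.03, 3.57 and 1.89 times the sham level of the microglia list. Cells gained by one class and cells lost by another cannot be told apart in such a share.

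**Figure D1:**
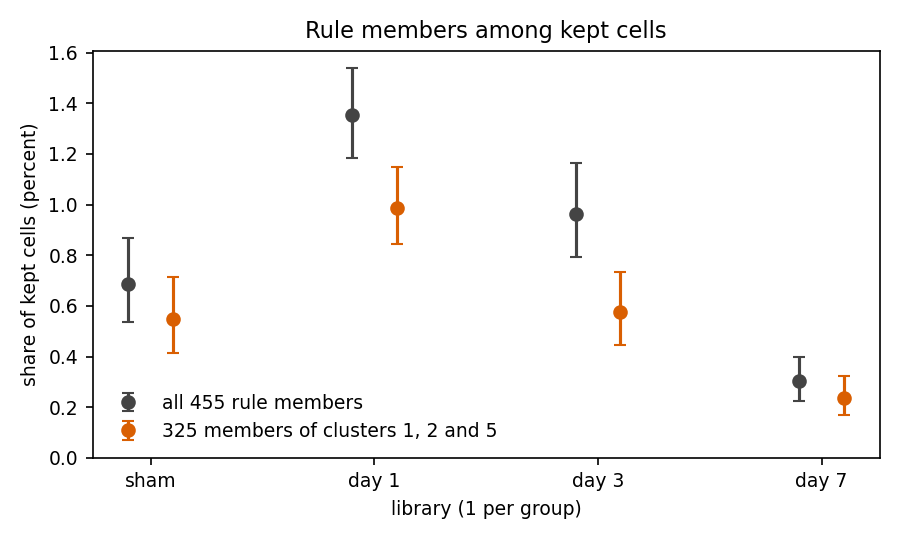
Share of kept cells (percent, vertical axis) that met the marker rule in each of the 4 libraries (horizontal axis), for all 455 members (grey) and for the 325 members of clusters 1, 2 and 5 (orange). Points are shares, bars are exact binomial 95% intervals that cover counting error, and the day 1 points stand highest and the day 7 points lowest in both populations.

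The rule has a threshold at 3 marker genes, and since a gene is found more readily in a deeper cell, the depth on both sides of it is given. Members with exactly 3 of the 5 genes numbered 24, 83, 36 and 13 in sham and on days 1, 3 and 7, with a median of 2464.5, 2280, 3857 and 2948 UMIs per cell. Just outside, cells with 2 of the 5 genes that met the other criteria numbered 53, 139, 78 and 70, with medians of 5119, 3272, 7170.5 and 5339.5 UMIs, so the cells just outside were the deeper ones in each library. Members with all 5 genes numbered 31, 65, 46 and 28. The median depth of the members was 3201.5 UMIs in sham, 2446.5 on day 1, 4541 on day 3 and 3197.5 on day 7. Kept cells with at least 1000 UMIs (9330, 14572, 10331 and 14447) were also thinned to 1000 before the rule was applied. Among these cells the shares were 0.514%, 0.940%, 0.707% and 0.256%, in the same order.

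The members were a mixture. Clustering gave 7 clusters, and in clusters 1, 2 and 5 (224, 75 and 26 cells) each of the 5 rule genes stood at 200 CPM or more (UMIs of a gene per 1000000 UMIs of the summed cells), with none of the genes on the marker lists of other cell classes among the 10 leading genes. Since the rule genes chose the cells, their levels are no evidence for the label. The choice of clusters still rests in part on these levels, and cluster 6, described below, was left out on them alone. Slc1a2 and Aldoc, an astrocyte glutamate transporter and a glycolytic enzyme that the rule did not use, stood at 4625, 5510.4 and 2465 CPM and at 3879.7, 6430.1 and 3513 CPM in clusters 1, 2 and 5. In cluster 1 the leading genes were Utp14b, Slc6a9, the glycine transporter GlyT1, and Dok7, and in cluster 5 S100a4, Tgm1 and Gfap, with Lgals3 and Serpina3n next. Cluster 2 was led by Stmn3, Fezf2 and Hopx, and 4 of its 10 leading genes, Stmn3, Rtn1, Ndrg4 and Bex2, are best known from neurons. These 4 were found in 15 to 19 of its 75 cells, and its level of the neuron list, 534 CPM, was the highest of the 7 clusters. The 325 cells of clusters 1, 2 and 5 are called core members below, and no cluster is given a cell type name.

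The other 130 members lay in 4 clusters outside these criteria, which are called by number and leading genes. Cluster 3 (49 cells, led by Ctla2a, Tmem252 and Flt1) held 11580 CPM of an endothelial marker list and 14 of the 21 members that Scrublet called doublets. In cluster 4 (35 cells, Dapl1, Msln and Dcn) Slc1a2 and Aldoc stood at 19.3 and 3.86 CPM, and a fibroblast list at 3682 CPM. Cluster 6 (23 cells, 22 of them from day 3) was led by Npy, Frzb and Prss56. It held 5822 CPM of an oligodendrocyte list and 4302 CPM of a mural list. Slc1a2 stood at 242 and Aldoc at 1520 CPM, and the rule gene Aqp4 had no UMI. Cluster 7 (23 cells) was led by Ttr and Folr1, which mark the choroid plexus, with 154816 CPM of the choroid plexus list. The clusters were built on genes that also differ between the libraries, so the sizes of single clusters are not compared between libraries. The share of the core members given below has the same limit.

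**Figure D2:**
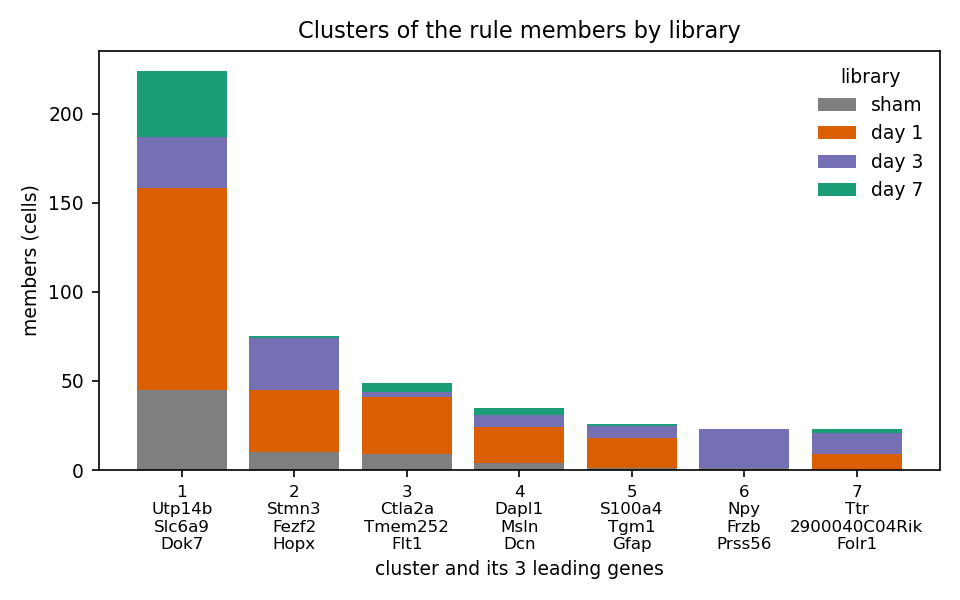
Number of members (cells, vertical axis) in each of 7 clusters (horizontal axis, with the 3 leading genes under each number), stacked by library. Cluster 1 holds 224 members from all 4 libraries, and cluster 6 holds 22 of its 23 members from the day 3 library.

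Values are therefore given for the 325 core members, a set drawn after the data were seen, with values over all 455 members and over cluster 1 beside the main results. Gfap, Tgm1, Serpina3n and Lgals3 lead cluster 5, so their levels by cluster are a description. The core members numbered 56 in sham, 165 on day 1, 65 on day 3 and 39 on day 7. Cluster 1 held 45, 113, 29 and 37 of them and clusters 2 and 5 the rest, so that the sums mix the clusters in unlike shares, most of all on days 3 and 7. Their share of kept cells was 0.549%, 0.987%, 0.575% and 0.236%, so that day 1 stood at 1.80 times sham (1.32 to 2.48), day 3 at 1.05 times (0.721 to 1.52) and day 7 at 0.429 times (0.277 to 0.657). The excess of day 3 over sham in the full set was thus not seen in the core set. Clusters 6 and 7, left out of the core set, held 22 and 12 day 3 cells but 1 and 0 sham cells. The lower day 3 share thus follows from how the set was drawn. Sums over these cells held 212333 UMIs in sham, 539089 on day 1, 322355 on day 3 and 118732 on day 7, so the day 7 values are the least precise.

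RNA of other cell types was measured in the same sums. The endothelial list stood at 193, 399, 136 and 177 CPM in sham and on days 1, 3 and 7, or 1.87%, 7.4%, 1.56% and 1.98% of its level in all other kept cells, whereas over all 455 members it reached 28.7%, 43.7%, 19.6% and 27.9%. A neuron list stood at 80.1, 466, 37.2 and 0 CPM, and in cluster 1 alone at 72.5, 146, 10.8 and 0 CPM, and a microglia list at 42.4, 729, 93.1 and 84.2 CPM, of which a single cell gave 52% on day 1. Cluster 1 alone held the microglia list at 52.8, 1616, 151 and 88.6 CPM, the endothelial list at 165, 795, 129.6 and 186 CPM, a mural list at 132, 437, 140.4 and 70.9 CPM and a list of neutrophil and T cell genes at 0, 2597, 32.4 and 0 CPM. Cluster 1 thus held 366 of the 393 microglia, 180 of the 215 endothelial and 588 of the 588 neutrophil and T cell UMIs of the core members on day 1. These lists were higher on day 1 than in sham also among the core members, and their part in the day 1 results was not tested. On day 1 a single core cell gave 99.8% of the neutrophil and T cell UMIs. The top cell of the endothelial list gave 55.8% and that of the mural list 55.5%. A blood list stood at 42758, 20.4, 102 and 50.5 CPM among the core members, and 1 cell gave 99.5% of its sham UMIs. These 9079 UMIs are part of the 212333 by which sham levels were divided. A choroid plexus list stood at 1375, 2063, 1272 and 969 CPM. Between 21 and 80 barcodes of kept cells were shared by each pair of libraries, none of them between members, although 8 members shared a barcode with a kept cell of another library.

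A gene was counted as higher or lower where its ratio to sham was past 2-fold with 10 CPM added to both levels and the exact interval of the ratio left out 1, among genes with at least 50 CPM in either library and at least 20 UMIs over both. Among the core members, 441 of 4189 genes were higher on day 1 (10.5%) and 256 lower (6.11%). On day 3, 233 of 3955 genes were higher (5.89%) and 164 lower (4.15%), and on day 7, 145 of 2955 genes were higher (4.91%) and 111 lower (3.76%). Over all 455 members the counts were 310 higher (7.68% of 4039 genes) and 243 lower (6.02%) on day 1, 212 (5.23% of 4057) and 207 (5.1%) on day 3, and 154 (3.76% of 4098) and 164 (4%) on day 7. Of the 310 genes higher on day 1 in the full set, 211 were also higher among the core members, and of the 243 lower ones 155 were also lower. Fewer calls were shared on the other days: 71 of 212 higher and 100 of 207 lower genes on day 3. On day 7 they were 59 of 154 higher and 64 of 164 lower genes. The median log2 ratio over the genes compared was 0.07, 0.09 and 0.06 on days 1, 3 and 7, so the scale itself was close to level.

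Pan-reactive genes stood above sham on days 1 and 3 in the core sum. Of the 13 genes in the list, 9 had enough UMIs on day 1 and 8 of these were higher than in sham (Gfap, Vim, Serpina3n, Hspb1, Timp1, Lcn2, Cxcl10 and Osmr), beside 10.5% of all genes. On day 3, 4 of 5 were higher (Gfap, Vim, Serpina3n and Hspb1) beside 5.89%, and on day 7 both genes with enough UMIs, Gfap and Vim, were lower, beside 3.76%. The summed level was 1333, 5069.7, 6279 and 211 CPM in sham and on days 1, 3 and 7. That is 3.8 (3.36 to 4.31), 4.71 (4.16 to 5.35) and 0.158 (0.101 to 0.238) times sham, against 0.878, 1.61 and 1.02 times in all other kept cells. Over all 455 members the ratios were 3.1 (2.83 to 3.4), 3.07 (2.8 to 3.38) and 0.851 (0.733 to 0.986), with 5 of 8, 7 of 8 and 0 of 4 genes higher beside 7.68%, 5.23% and 3.76% of all genes. In cluster 1 alone the sum stood at 191, 715, 216 and 204 CPM, so that day 1 was 3.74 (2.51 to 5.76) times sham, whereas day 3, at 1.13 (0.606 to 2.07), and day 7, at 1.07 (0.588 to 1.91), had intervals that held 1. The microglia list of cluster 1 was 30.6 times sham on day 1.

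The promoters of 3 of these genes are shown because they hold the letters that STAT factors or AP-1 (dimers of Fos and Jun proteins) bind, the factors at the end of the gp130 and immediate-early pathways described below. They run from 170 bases before to 10 bases after the RefSeq start on GRCm38.p6, 5′ to 3′ along the gene, all on the minus strand: Gfap at chr11:102897191-102897370, Cxcl10 at chr5:92348880-92349059 and Osmr at chr15:6874304-6874483. Capitals mark a STAT match, TTCNNNGAA, in Gfap and an AP-1 match, TGANTCA, in Cxcl10 and Osmr.
Gfap: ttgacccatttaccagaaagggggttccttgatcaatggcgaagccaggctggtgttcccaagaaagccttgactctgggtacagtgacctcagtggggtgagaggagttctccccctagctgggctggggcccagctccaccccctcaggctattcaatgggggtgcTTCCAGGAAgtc
Cxcl10: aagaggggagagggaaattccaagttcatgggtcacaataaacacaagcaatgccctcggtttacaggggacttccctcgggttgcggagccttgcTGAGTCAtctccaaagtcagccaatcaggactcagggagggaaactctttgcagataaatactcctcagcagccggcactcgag
Osmr: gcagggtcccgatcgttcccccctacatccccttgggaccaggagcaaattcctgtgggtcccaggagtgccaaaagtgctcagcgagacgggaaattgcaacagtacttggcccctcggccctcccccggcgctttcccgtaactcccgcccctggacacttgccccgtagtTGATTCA
Among the 300-base windows of the 8 genes higher on day 1, which run from 250 bases before to 50 after the start, 1 held the STAT letters and 2 the AP-1 letters on either strand. Over all 32851 windows of 27025 genes the STAT letters were in 8.30% and the AP-1 letters in 7.81%. Of the 7 of 9 immediate-early genes higher on day 1 that had a window, 1 held the STAT letters and 0 the AP-1 letters, and of the 7 of 11 sterol genes lower on day 1 that had a window, 0 held the STAT letters and 1 the AP-1 letters. A loose form of the NF-kB motif, 10 letters long with its middle letters left free, was searched on both strands. It was found for 8 of 8, 6 of 7 and 7 of 7 of these pan-reactive, immediate-early and sterol genes and in 50.8% of all windows. For all 3 motifs a gene counted when any of its windows held a match, whereas the shares over all windows are per window. The counts and the shares are therefore not in the same unit. The STAT and AP-1 letters searched are their own reverse complements, and a match is a description of letters, not a site.

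Gfap, the gene of the astrocyte intermediate filament (ENSMUSG00000020932, chr11:102887336-102900912, minus strand, GRCm38), stood at 1111, 2329.9, 3254 and 109 CPM in sham and on days 1, 3 and 7. It was carried by 11, 55, 34 and 8 cells, and the single highest cell gave 34%, 15%, 42% and 38% of its UMIs. Day 1 was thus 2.1 (1.82 to 2.42) times sham and day 3 2.93 (2.54 to 3.39) times, whereas day 7 was 0.0985 (0.0517 to 0.172) times. The sham level itself rested on few cells, since 5 of the 10 sham cells of cluster 2 held 227 of its 236 UMIs. In cluster 1, which holds 29 or more members of each library, Gfap stood at only 59.4, 141, 119 and 115 CPM, so the lower level on day 7 was not seen there. In cluster 2 it stood at 4166, 727, 1735 and 0 CPM, so that days 1 and 3 lay below sham there, and day 7 rests on 1 cell. In cluster 5, which held 1 sham cell, with no UMI of Gfap, it stood at 6857 CPM on day 1, in 16 of 17 cells, and 13196 CPM on day 3, in 7 of 7 cells. Without the top cell of each library (10 CPM added), the ratios were 2.69, 2.56 and 0.105 on days 1, 3 and 7, so that days 1 and 3 stood close to each other.

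Vim, which codes for vimentin, the filament partner of GFAP, stood at 108, 1308, 1833 and 25.3 CPM, from 13, 47, 30 and 3 cells, and was 12.1 times sham on day 1 (7.98 to 19.2) and 16.9 times on day 3 (11.2 to 26.9). On day 7 its ratio was 0.233 (0.0448 to 0.772), on 3 UMIs. A single cell gave 38.1% of the day 3 UMIs, and without the top cell of each library the ratios (10 CPM added) were 13.0 on day 1 and 13.4 on day 3. Cluster 5 held 630 of the 705 UMIs of day 1, from 17 of 17 cells, whereas cluster 1 stood at 46.2, 168, 54.0 and 17.7 CPM. In the full set of members day 7 stood at 1.42 (1.07 to 1.88) times sham, with 59 of its 99 UMIs from cluster 4 and 37 from cluster 3. The sign of the day 7 difference in Vim thus changed with the cells taken in.

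Serpina3n, a secreted serine protease inhibitor (ENSMUSG00000021091, chr12:104406729-104414329, plus strand), went from 9.42 CPM in sham to 556 CPM on day 1 and 459 CPM on day 3, and stood at 8.42 CPM on day 7. The sham and day 7 levels rest on 2 UMIs and 1 UMI, and the ratio was 59.1 (16.2 to 490.1) on day 1 and 48.7 (13.3 to 406) on day 3. On day 1 it was present in all 3 clusters, at 75.1 CPM in cluster 1, 347 CPM in cluster 2 and 1421 CPM in cluster 5. It was among the 8 largest ratios on both day 1 and day 3, and over all 455 members it stood at 9.9, 357, 260 and 5.31 CPM. All other kept cells held 1.09, 113, 32.6 and 6.86 CPM of Serpina3n, so that day 1 was 104 times and day 3 29.8 times sham there.

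Timp1, an inhibitor of matrix metalloproteases, had no UMI in sham and stood at 219 CPM on day 1, at least 15.5-fold higher against a floor of 3 UMIs in the sham sum. Of its 118 UMIs on day 1, 115 lay in cluster 5, and it stood at 27.9 CPM on day 3 and 8.42 CPM on day 7. Lcn2, which codes for the iron-siderophore binding protein lipocalin 2, likewise had no UMI in sham, stood at 171 CPM on day 1 (at least 12.1-fold higher) and 37.2 CPM on day 3, and had none on day 7. Cxcl10, a chemokine that attracts T cells, was found among the core members on day 1 alone, with 58.3% of its UMIs in 1 cell, at 66.8 CPM from 4 cells (at least 4.73-fold higher). Among the core members these 3 genes were highest on day 1. Over the full set Lcn2 stood higher on day 3, at 0, 229.8, 496 and 0 CPM, of which a single cell gave 60.5% on day 3, and all other kept cells held 32, 66, 1419 and 130.2 CPM of it.

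Hspb1, a small heat shock protein, stood at 47.1, 241, 484 and 8.42 CPM and was 5.12 times sham on day 1, but a single cell gave 95% of its day 3 UMIs. In cluster 1 its day 1 ratio was 1.34 (0.541 to 3.61), so the day 1 call was not seen there. Osmr, the receptor subunit for oncostatin M, stood at 4.71, 55.6, 55.8 and 0 CPM, with 11.8 (1.96 to 482) times sham on day 1 from 1 UMI in sham. In cluster 1 alone Osmr had 1 UMI in sham and 1 on day 1. Its day 1 ratio there, 0.869 with 10 CPM added, has an interval without added CPM of 0.00853 to 52.6 and decides nothing.

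**Figure D3:**
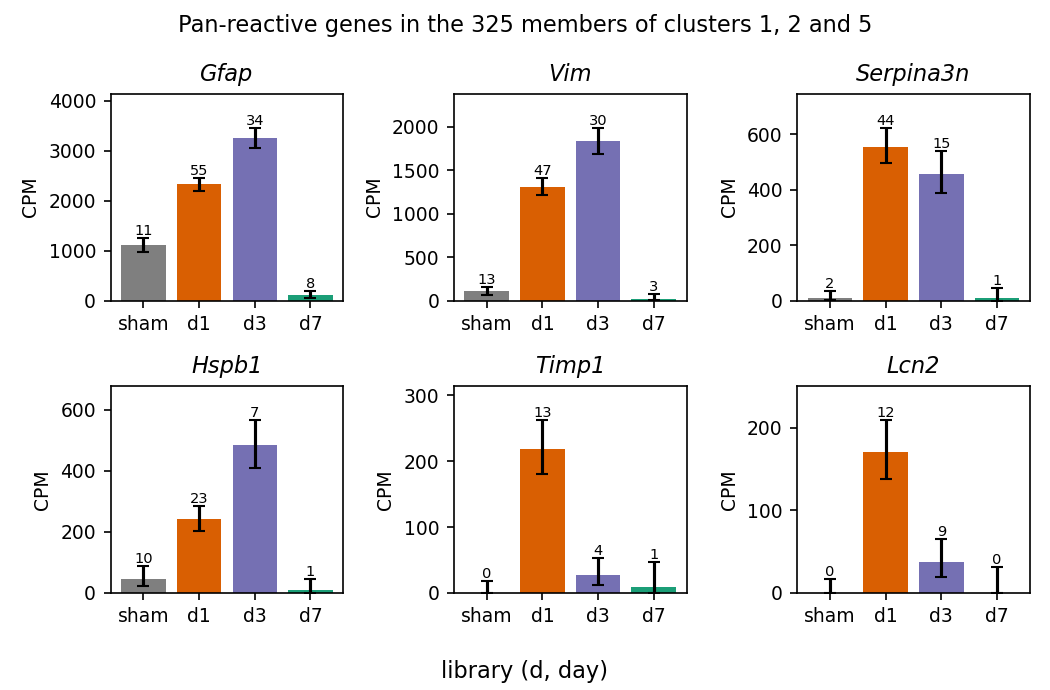
Level (CPM, vertical axes, each from 0) of 6 pan-reactive genes in the 325 core members by library (horizontal axis). Bars are summed levels, error bars exact Poisson 95% intervals and the numbers above them cells with a UMI. Serpina3n, Timp1 and Lcn2 are highest on day 1, all 6 are low on day 7, and the day 3 bars of Gfap, Vim and Hspb1 owe 42%, 38% and 95% of their UMIs to 1 cell each.

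Within a library the reactive genes were uneven between cells. With each core member thinned to 1000 UMIs, Gfap was found in 6 of 53 cells in sham (11.3%), 36 of 146 on day 1 (24.7%), 21 of 65 on day 3 (32.3%) and 4 of 35 on day 7 (11.4%). Endothelial cells, which should lack Gfap, had a UMI of it in 0.12%, 1.24%, 1.17% and 0.179% at the same depth. A Vim UMI was found in 7.55%, 20.5%, 20% and 0 of 35 cells, which by a floor of 3 cells allows a share of up to 8.57% on day 7, and in 64.7%, 67.3%, 63.0% and 53.7% of endothelial cells. Serpina3n was found in 0 of 53, 17.8%, 18.5% and 2.86% of cells. At least 2 of the 13 pan-reactive genes were found in 2 of 53 cells in sham (3.77%), 29 of 146 on day 1 (19.9%), 14 of 65 on day 3 (21.5%) and 2 of 35 on day 7 (5.71%). Endothelial cells held at least 2 of them in 58.6%, 63.2%, 71.3% and 55.5% at the same depth, and the part of endothelial RNA in the day 1 share was not tested. Cells with both Gfap and Vim numbered 1, 17, 9 and 0. Most core cells on days 1 and 3 therefore held at most 1 of these genes at this depth, which does not show that the others are absent.

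**Figure D4:**
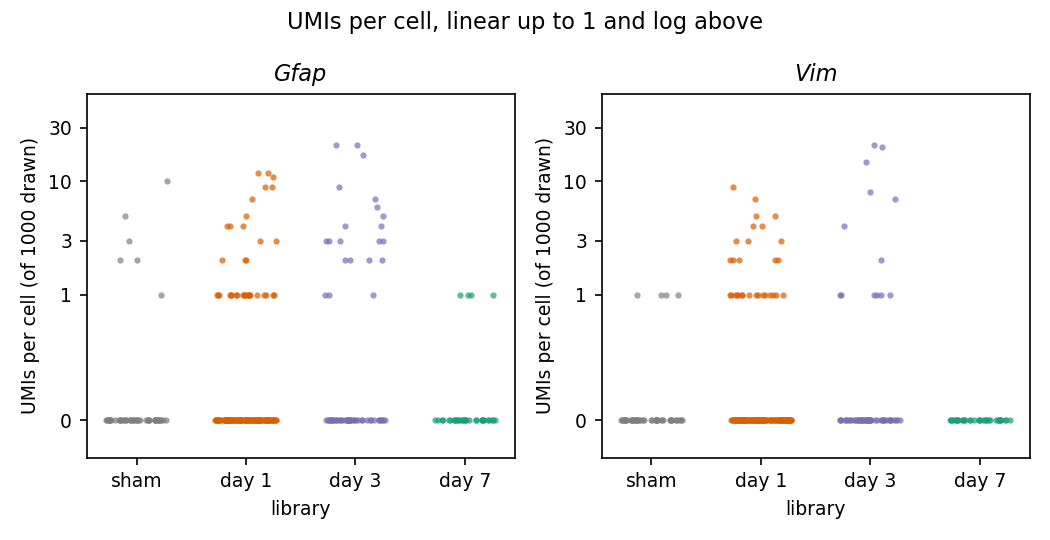
UMIs of Gfap and of Vim per cell (vertical axes, linear up to 1 and logarithmic above) after each of the 299 core members with at least 1000 UMIs was thinned to 1000, by library (horizontal axis, points spread sideways for sight). A few cells on days 1 and 3 hold most of the UMIs, most cells hold 0, and no day 7 cell holds more than 1.

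Few genes of the A1 and A2 sets had enough UMIs to be compared. Of 13 A1 genes, 3 of 3 were higher on day 1 (H2-D1, Psmb8 and Srgn) beside 10.5% of all genes, 2 of 2 on day 3 (H2-D1 and Ggta1) beside 5.89%, and 1 of 1 on day 7 (H2-D1) beside 4.91%. H2-D1, a class I antigen-presenting protein, stood at 42.4, 171, 149 and 109 CPM. Of 12 A2 genes, 4 of 4 were higher on day 1 (Cd14, S100a10, Tgm1 and Tm4sf1), again beside 10.5%, and 0 of 1 on days 3 and 7. Tgm1, a transglutaminase, had no UMI in sham and stood at 115 CPM on day 1 (at least 8.14-fold higher) and 46.5 CPM on day 3. The A2 sum was 8.41 (5.49 to 13.6), 3.29 and 1.06 times sham, and the A1 sum 4.24 (2.81 to 6.67), 3.06 and 2.58 times. In the full set the A2 ratios were 1.85, 0.991 (0.828 to 1.19) and 0.822 and the A1 ratios 1.22, 1.24 and 1.15 (0.935 to 1.41). In cluster 1 alone they were 3.65, 1.04 and 1.34 and 6.16, 1.53 and 3.04. A single cell gave 51.6% of the day 1 UMIs of Tgm1 and 52.4% of the day 3 UMIs of Ggta1. Cd14 and Srgn are expressed by immune cells, whose marker lists were also higher on day 1, and the part of such cells was not tested.

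In the gp130 and STAT3 pathway, 3 of 7 genes were higher on day 1 (Socs3, Pim1 and Ifitm3) beside 10.5% of all genes, and 1, Il6st, which codes for gp130 itself, was lower beside 6.11%. Il6st was also lower on day 3, beside 4.15% of all genes, whereas Ifitm3 was higher on day 3 and lower on day 7, beside 5.89% and 3.76% (1 of 5 genes in each case), at 118, 649, 447 and 33.7 CPM. Socs3, the feedback inhibitor that STAT3 induces, had no UMI in sham and stood at 104 CPM on day 1 (at least 7.35-fold higher), 52.7 CPM on day 3 and 8.42 CPM on day 7. Il6st stood at 122, 27.8, 55.8 and 50.5 CPM. Among cytokines, chemokines and adhesion genes, 3 of 7 were higher on day 1 beside the same 10.5%, namely Icam1, Nfkbia, an inhibitor of NF-kB, and Tnfrsf12a, the receptor for TWEAK, although 1 cell gave 77.1% of the Icam1 UMIs, and on day 7 Nfkbia was higher (1 of 4, beside 4.91%). Of the interferon response genes, 3 of 5 were lower on day 1 beside 6.11%, Ifit3 and Isg15 among them, and 1 of 5 on day 3 beside 4.15%. The sum of the list was 0.674 (0.562 to 0.81), 0.749 (0.613 to 0.915) and 0.565 (0.415 to 0.759) times sham. All other kept cells stood at 0.236, 0.496 and 0.366 times sham for the same list. The interferon ratios over all 455 members were 0.423 (0.38 to 0.472), 0.625 (0.56 to 0.697) and 0.417 (0.347 to 0.50), and under the alternatives run the day 3 ratio lay between 0.487 and 1.16, on both sides of 1.

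Sterol synthesis, by which astrocytes make cholesterol for neurons, was lower on days 1 and 7 in each of the 3 cell sets examined. Of 15 genes, 11 were lower on day 1 beside 6.11% of all genes, 1 on day 3 beside 4.15%, and 8 of 14 on day 7 beside 3.76%. None was higher on any day. The summed level was 4093, 1725, 3512 and 1794 CPM in sham and on days 1, 3 and 7, which is 0.422 (0.384 to 0.463), 0.858 (0.785 to 0.938) and 0.438 (0.376 to 0.51) times sham. Over all 455 members the ratios were 0.421 (0.387 to 0.458), 0.799 and 0.409 (0.353 to 0.471), and in cluster 1 alone 0.476, 1.31 and 0.47. All other kept cells stood at 1.11, 0.862 and 0.863 times sham for this list.

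In the full set, 11 of 14, 0 of 14 and 10 of 14 genes were lower on days 1, 3 and 7, beside 6.02%, 5.1% and 4% of all genes. Enzymes from the start to the end of the pathway were among the lower ones. Among the core members, to which the levels below belong, Hmgcs1, which makes HMG-CoA, stood at 353, 132, 341 and 118 CPM in sham and on days 1, 3 and 7. It was thus 0.373 (0.266 to 0.523) times sham on day 1 and 0.334 (0.174 to 0.596) times on day 7, with day 3 close to sham. Mvd, the mevalonate decarboxylase further down, stood at 179, 55.6, 93.1 and 25.3 CPM. Dhcr7, which makes cholesterol from its direct precursor, stood at 179, 53.8, 130.3 and 25.3 CPM and was 0.301 times sham on day 1 and 0.141 times on day 7. Msmo1, a sterol oxidase, stood at 1111, 551, 1194 and 615 CPM and did not pass the 2-fold rule on any day among the core members. In the full set Msmo1 was lower on days 1 and 7.

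In lipid carriage and oxidation, 0 of 9 genes passed on day 1, beside 10.5% of all genes higher and 6.11% lower. Abca1, which exports cholesterol to lipoproteins, was the one gene higher on day 3 (1 of 9, beside 5.89%) and on day 7 (1 of 8, beside 4.91%), at 94.2, 148, 202 and 236 CPM. In cluster 1 its day 3 level was 1.13 (0.473 to 2.58) times sham, so the day 3 call was not seen there. Apoe, the main lipoprotein of astrocytes, stood at 21367, 18611, 32064 and 22673 CPM. Fabp7, a fatty acid binding protein of radial glia and astrocytes, stood at 457, 527, 518 and 109 CPM and was lower on day 7 (1 of 8, beside 3.76%). Its day 1 ratio in cluster 1 was 0.301 (0.163 to 0.538).

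Immediate-early genes, which cells switch on within minutes of a stimulus or of dissociation, were higher on day 1 among the core members: 9 of 10 passed (Atf3, Dusp1, Egr1, Fos, Ier2, Ier3, Jun, Junb and Zfp36) beside 10.5% of all genes. Their sum stood at 358, 1606, 428 and 682 CPM, or 4.49 (3.55 to 5.75), 1.2 (0.898 to 1.6) and 1.91 (1.38 to 2.64) times sham, and in cluster 1 alone at 6.89, 1.29 and 2.49 times. Over all 455 members the direction on day 1 turned, with 0.841 (0.792 to 0.894), 0.685 (0.641 to 0.732) and 1.11 (1.03 to 1.2) times sham, and all other kept cells stood at 0.556, 0.794 and 1.29 times. The level in other cells, between 6695 and 15558 CPM, was above that of the core members in every library. In the full set 2 of 12 genes were higher on day 1 (Ier3 and Nr4a1) and 0 lower, beside 7.68% and 6.02% of all genes. The day 1 call in the core set thus depends on which clusters are taken in.

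Junb, a subunit of AP-1, stood at 37.7, 323, 109 and 84.2 CPM and was the one gene of the list also higher on day 3 (1 of 3, beside 5.89% of all genes), with 54.3% of those UMIs from 1 cell. Fos stood at 127, 328, 74.5 and 67.4 CPM and Jun at 70.6, 221, 105 and 261 CPM, and Jun was the one gene of the list higher on day 7 (1 of 2, beside 4.91%). Zfp36, which destabilises cytokine mRNAs, stood at 9.42, 106, 12.4 and 33.7 CPM.

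Metallothionein and iron storage genes stood higher on days 1 and 3 in the core set, with sums of 18226, 38131, 36066 and 19961 CPM in sham and on days 1, 3 and 7. On day 1, 5 of 10 genes were higher (Mt1, Mt3, Fth1, Ftl1 and Hmox1) beside 10.5% of all genes, on day 3, 2 of 9 (Mt3 and Ftl1) beside 5.89%, and on day 7 none was higher and the cystine transporter Slc7a11 was lower (1 of 9, beside 3.76%). Mt1, a zinc-binding metallothionein, stood at 6664, 14758, 13032 and 9391 CPM, and Mt3, the brain form, at 4299.9, 9128, 10805 and 4759 CPM. Fth1, the ferritin heavy chain, stood at 2501, 7149, 4519.9 and 1811 CPM. Hmox1, the heme-degrading enzyme, stood at 18.8, 169, 24.8 and 8.42 CPM and was 8.96 (3.38 to 33.6) times sham on day 1, when it was 8.03 times sham in all other kept cells. The other cells also held 2.27 times the sham level of Mt1 and 4.87 times that of Mt3 on day 1, and in cluster 1 alone the sum of the list was 1.44, 1.19 and 1.29 times sham on days 1, 3 and 7, and Mt1 was 1.46 and 0.93 times sham on days 1 and 3. On day 1 in cluster 1, Mt3 was 1.13 times sham, Fth1 2.60 times, Ftl1 3.88 times and Hmox1 15.4 times.

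Values here are for the core members unless another set is named. Over all genes, 10.5%, 5.89% and 4.91% were higher on days 1, 3 and 7 and 6.11%, 4.15% and 3.76% lower. Of 18 further astrocyte markers that the rule did not use, 0 passed on any day, with sums of 0.98, 1.52 and 1.22 times sham. In the full set the sums were 0.838 (0.82 to 0.857), 1.2 and 1.11 times. Plpp3 was lower there on day 1 and Slc7a10 on day 3. In cluster 1 the sums were 0.841 (0.815 to 0.868), 1.29 and 1.2 times, so day 1 was level in the core set only. Of the potassium, water and volume genes, 0 of 12, 12 and 11 passed, with sums of 0.789, 0.894 and 1.15 times. In the full set Slc12a2 was higher and Kcnk1 lower on day 1, with sums of 0.706, 0.801 and 1.09 times. In cluster 1 the sums were 0.842, 0.842 and 0.974 times. Cells that had lost the astrocyte markers would not have been chosen by the rule. Of the 5 rule genes, whose level the rule bears on, 1 was lower on day 1 (Aqp4, at 1299.8, 566, 1089 and 1179 CPM), 1 higher on day 3 (Slc1a3, at 1526, 2196, 3698 and 2906 CPM) and 1 higher on day 7 (F3, at 899.5, 876, 1256 and 1853 CPM), beside 6.11%, 5.89% and 4.91% of all genes.

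Of the genes for secreted proteins that act on synapses, 2 of 6 were lower on day 1 (Sparcl1 and Tgfb2) beside 6.11% of all genes and 1 was higher (Chrdl1) beside 10.5%. On day 3, 1 of 7 was higher (Chrdl1) beside 5.89%, and on day 7, 1 of 5 was lower (Tgfb2) beside 3.76%. The sum of the list was 0.47 (0.439 to 0.502), 0.751 (0.702 to 0.804) and 0.993 (0.914 to 1.08) times sham. Sparcl1, also called hevin, gave most of the UMIs of the list. It (ENSMUSG00000029309, chr5:104079111-104113733, minus strand) stood at 6264, 2502, 4653 and 5946 CPM and was 0.40 (0.37 to 0.431) times sham on day 1. Day 1 was 0.374 times sham over all 455 members and the levels were 5698, 2822, 4483 and 5899 CPM in cluster 1, while all other kept cells were at 0.511 times sham. Tgfb2, a transforming growth factor, stood at 113, 46.4, 77.6 and 42.1 CPM, with a day 1 ratio of 0.67 (0.179 to 2.5) and a day 7 ratio of 1.12 (0.27 to 4.4) in cluster 1, where neither call was seen, and Chrdl1, which acts on AMPA receptor composition, at 14.1, 50.1, 74.5 and 59 CPM.

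In glutamate and GABA handling, Glul, the glutamine synthetase that converts glutamate to glutamine, stood at 1319, 1849, 3493 and 2737 CPM and was higher on day 3, at 2.65 (2.32 to 3.03) times sham, and on day 7, at 2.08 (1.76 to 2.44) times. Against this, the GABA transporter Slc6a11 (GAT3) stood at 1484, 761, 692 and 1735 CPM and the glycine transporter Slc6a9 at 339, 174, 37.2 and 261 CPM, both lower on day 3, at 0.466 (0.391 to 0.555) and 0.11 (0.0542 to 0.204) times sham. By count, 0 of 10 genes passed on day 1, beside 10.5% of all genes higher and 6.11% lower, 1 of 9 was higher and 2 of 9 lower on day 3, beside 5.89% and 4.15%, and 1 of 9 was higher on day 7, beside 4.91%. In cluster 1 Slc6a11 was 0.628 (0.499 to 0.785) times sham on day 3, short of 2-fold. The glutamate transporter Slc1a2 (GLT-1) stood at 3688, 3818, 5655 and 5938 CPM.

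Genes that mark astrocytes of different brain regions also differed between the libraries. Agt, the angiotensinogen gene, which is high in astrocytes of the diencephalon and brainstem, stood at 1620.1, 1096, 267 and 1802 CPM and was 0.165 (0.128 to 0.209) times sham on day 3 (1 of 2 genes of its list, beside 4.15% of all genes). Of 5 telencephalon genes, 2 were higher on that day (Lhx2 and Emx2, both transcription factors) beside 5.89% of all genes, at 104, 109, 267 and 84.2 CPM and 9.42, 26, 58.9 and 50.5 CPM, and 1 was lower (Itih3) beside 4.15%, at 575, 577, 254 and 615 CPM. Slc6a9 and Slc6a11, described above, are also stronger outside the telencephalon, and the part of region in the day 3 values was not tested.

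**Figure D5:**
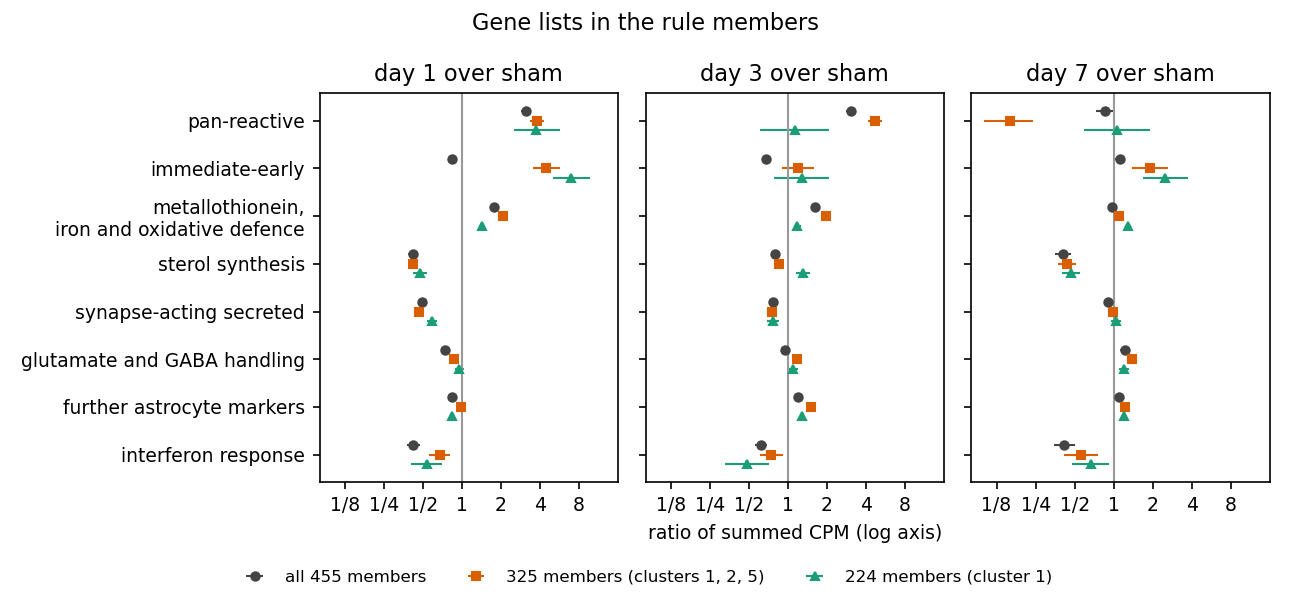
Ratio of the summed CPM to sham (horizontal axes, logarithmic) for 8 gene lists (rows) on days 1, 3 and 7, over all 455 members, the 325 core members and the 224 members of cluster 1. Points are ratios and bars exact 95% intervals for counting error; sterol synthesis lies left of 1 on days 1 and 7 in all 3 sets, while the immediate-early list lies on both sides of 1 on day 1.

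The genes with the largest ratios were listed per day and direction, up to 8 each. Among the core members on day 1 these were S100a8, S100a9, Serpina3n, Cxcl2, Timp1, Lyz2, Lcn2 and Retnlg. S100a8, S100a9 and Retnlg are genes of neutrophils, and a single cell gave 99.6% of the S100a8 UMIs, as 1 cell did 89.1% of those of Lyz2. On day 3 they were Serpina3n, Lgals3, Vim, Gldc, Lgals1, Fxyd3, S100a6 and Atp1b1. Lgals3, which codes for galectin 3, had no UMI in sham and stood at 226 CPM on day 3 (at least 16-fold higher), but a single cell gave 54.8% of these UMIs, and 74.1% of those of Fxyd3 and 41.8% of those of Lgals1 likewise came from 1 cell. Gldc, the glycine cleavage enzyme, went from 28.3 to 245 CPM, 8.67 (3.81 to 24.3) times sham, and Atp1b1, a sodium pump subunit, from 65.9 to 406 CPM.

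On day 7 the highest ratios were those of Ppp2r3a, Klhl24, Pan3, Gm9925, Hbp1, Anks1, Epb41l2 and Brinp3, between 4.77 and 7.60 times sham. They rest on 4 to 11 sham UMIs per gene, and the interval of Ppp2r3a ran from 2.48 to 31.0. In all other kept cells the ratios of these genes lay between 0.633 and 2.02. The lowest ratios of all 3 days included those of the hemoglobin genes, of whose sham UMIs 1 cell held 99%. Beside them, Gm32913, Fxyd6, 6330403K07Rik and Mia were lower on day 1. Fxyd6 and Gm32913 were lower on day 3 too, with Slc6a9 and Meg3, and Myoc, Fxyd6, Gfap and Slc38a1 on day 7. For Fxyd6, Gm32913, Meg3 and 6330403K07Rik, 1 sham cell held 57.7%, 96.9%, 75.6% and 61.8% of the sham UMIs. In the full set of 455 members, the leading genes of day 3 included Prss56, Npy and Frzb. Those of day 7 included Ttr (97% of its UMIs from 1 cell) and Msln. These genes lead clusters outside the core set.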

How the data were processed

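Single-cell suspensions of the ipsilateral hemisphere were run on the 10x Genomics Chromium platform, with 1 library for each of 4 groups. The values deposited are raw UMI counts for each gene in each called cell, which the authors had not normalized. The submitters' processing notes name Cell Ranger 3.0.1, Seurat 4.1.2 and the build GRCh38, whereas the file headers name cellranger 4.0.0 and the gene identifiers are those of mouse. Coordinates were taken from GENCODE vM21 (GRCm38), and promoter sequences from RefSeq (GRCm38.p6).

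The cell filter asked for 200 to 6000 genes and no more than 10% of UMIs from mitochondrial genes. UMIs were summed over the members of a library and divided by their total (CPM). With 1 library per group no test was run, and levels, ratios and shares carry exact Poisson, conditional and Clopper-Pearson 95% intervals for counting error only. A gene with no sham UMI was given a floor of 3 UMIs in the sham sum. Members were clustered with scanpy 1.11.5 (Leiden, igraph 0.11.9) at resolution 0.5 without the rule genes, and Scrublet called doublets, which were kept. Other steps used Python 3.11.15, numpy 2.4.6, scipy 1.17.1, pandas 2.3.3 and matplotlib 3.10.9. The ratio and call script was tested on simulated data.

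Per day and direction, the text names up to 8 genes with the largest ratio (10 CPM added) among those past 2-fold whose level in the members was at least that of all other kept cells in the library where it was higher, and genes of the lists. The members, the lists and the rules were chosen with earlier results of these data known, and the split into 325 and 130 members after the clusters were seen. Alternatives covered the filters, marker number, depth, doublets, mixed cells, minimum level, fold, added CPM, scaling and single cells. A few genes of the lists are counted but not reported here by name.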

Additional observations from a re-analysis of the deposited data

Results flagged for a closer look

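Over all 455 members, 3 genes that the text names were past 2-fold above sham on one day and past 2-fold below it on another. Fabp7, the fatty acid binding protein of radial glia and astrocytes, stood at 0.438 times sham on day 1, 3.62 times on day 3 and 0.0979 times on day 7. Among the 325 core members its levels were 457, 527, 518 and 109 CPM in sham and on days 1, 3 and 7, without the high value of day 3, which lay in cluster 6. A single sham cell, of cluster 6, held 129 of the 230 sham UMIs of Fabp7, and without the top cell of each library its ratios (10 CPM added) were 0.80, 7.23 and 0.215. Its day 1 ratio in cluster 1 was 0.301 (0.163 to 0.538). Npy, the gene of neuropeptide Y, which leads cluster 6, stood at 0.139 times sham on day 1, 12.1 times on day 3 and 0.0212 times on day 7, and a single cell gave 98.7% of its sham UMIs, on which these ratios rest. Gfap stood at 2.19 times sham on day 3 and 0.102 times on day 7, and at 2.93 and 0.0985 times among the core members. In cluster 1 alone the levels of Gfap were 59.4, 141, 119 and 115 CPM. The difference between the days was not tested, since each day is 1 library and all share the sham library.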

How the results depend on the processing

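No paired analysis was possible because each group has 1 library, and no library could be left out for the same reason. The order of the shares of day 1, sham and day 7 held in every alternative run, and sterol synthesis stayed below sham on days 1 and 7 in each. The pan-reactive sum stayed above sham on day 1 in each, and on day 3 too, though in cluster 1 the day 3 interval held 1. On day 7 it lay on both sides of sham, and so did the immediate-early sum on each day and sterol synthesis on day 3. Of 783 ratios of single genes under the alternatives, 512 moved less than their counting interval, 253 moved further without a called value changing side, and 18 changed side. The limits are the single library per group, the 39 core cells and 118732 UMIs of day 7, the rule on detected genes, which follows depth, and the many list genes without enough UMIs to compare.

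Values that moved by more than the counting interval (ratios and shares) or by more than 1.5 times (counts of genes) from those over all 455 members were the following, with the causes not tested. Where the value of 1 library or day moved, those of the others are given with it. With a threshold of 1.5-fold, 647, 442 and 280 genes were higher on days 1, 3 and 7, and 601, 452 and 259 genes were lower. With 3-fold, 109, 76 and 24 genes were higher on days 1, 3 and 7, and 39, 42 and 58 genes were lower. With 50 CPM added, 161, 81 and 42 genes were higher on days 1, 3 and 7, and 58, 48 and 57 genes were lower. With a minimum of 100 CPM, 203, 113 and 98 genes were higher on days 1, 3 and 7, and 120, 93 and 84 genes were lower. With a minimum of 20 CPM, 529, 341 and 154 genes were higher on days 1, 3 and 7. With no minimum of CPM or UMIs, 599, 403 and 329 genes were higher on days 1, 3 and 7, and 492, 460 and 245 genes were lower.

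With 200 to 3000 genes per cell, the ratios to sham on days 1, 3 and 7 were 3.77, 2.84 and 1.5 for pan-reactive genes, 0.522, 0.921 and 0.396 for sterol synthesis genes and 1.81, 1.05 and 1.95 for immediate-early genes. With at least 2 of 5 markers, the shares were 1.21%, 2.18%, 1.66% and 0.725% in sham and on days 1, 3 and 7. With at least 4 of 5 markers, the shares were 0.451%, 0.856%, 0.646% and 0.224% in sham and on days 1, 3 and 7, 366, 212 and 98 genes were lower on days 1, 3 and 7, the ratios to sham on days 1, 3 and 7 were 3.86, 3.97 and 0.466 for pan-reactive genes, 0.346, 0.642 and 0.361 for sterol synthesis genes and 1.27, 1.47 and 1.34 for immediate-early genes, and on the other side of 1 than over all members stood the ratios (10 CPM added) of Btg2 on day 3 (1.2), Dusp1 on day 3 (1.58) and Fabp7 on day 1 (1.08). With at most 5% mitochondrial UMIs, the shares were 0.619%, 1.02%, 0.80% and 0.271% in sham and on days 1, 3 and 7, and the ratios to sham on days 1, 3 and 7 were 4.1, 3.87 and 1.02 for pan-reactive genes and 0.839, 0.687 and 1.38 for immediate-early genes. With RNA of other cells subtracted in proportion to the endothelial list, the ratios to sham on days 1, 3 and 7 were 5.07, 5.26 and 0.692 for pan-reactive genes, 0.331, 0.814 and 0.378 for sterol synthesis genes and 0.829, 1.02 and 0.767 for immediate-early genes. With the mean of single-cell CPM, the ratios to sham on days 1, 3 and 7 were 2.55, 3.67 and 0.959 for pan-reactive genes, 0.549, 0.873 and 0.447 for sterol synthesis genes and 1.18, 0.932 and 1.29 for immediate-early genes.

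In cluster 1 alone (chosen after seeing the data), the ratios to sham on days 1, 3 and 7 were 3.74, 1.13 and 1.07 for pan-reactive genes, 0.476, 1.31 and 0.47 for sterol synthesis genes and 6.89, 1.29 and 2.49 for immediate-early genes, and on the other side of 1 than over all members stood the ratios (10 CPM added) of Btg2 on day 3 (1.07), Dusp1 on day 3 (1.46), Gfap on day 7 (1.8), Hspb1 on day 3 (0.504), Osmr on day 1 (0.869), Osmr on day 3 (0.603) and Tgfb2 on day 7 (1.1). The day 7 ratio of Vim, not past 2-fold over all members, also fell below 1 in cluster 1, at 0.384 (0.0389 to 2.02) with no CPM added. In the 325 core members (chosen after seeing the data), the shares were 0.549%, 0.987%, 0.575% and 0.236% in sham and on days 1, 3 and 7, the ratios to sham on days 1, 3 and 7 were 3.8, 4.71 and 0.158 for pan-reactive genes and 4.49, 1.2 and 1.91 for immediate-early genes, and on the other side of 1 than over all members stood the ratios (10 CPM added) of Dusp1 on day 3 (1.96) and Fabp7 on day 1 (1.15). Vim on day 7, above sham but short of 2-fold over all members, also changed side in the core set (0.233 with no CPM added). In these 325 without the top cell of each gene (chosen after seeing the data), 448, 234 and 97 genes were higher on days 1, 3 and 7, 165, 126 and 89 genes were lower, and on the other side of 1 than over all members stood the ratios (10 CPM added) of Dusp1 on day 3 (2.59), Fabp7 on day 1 (1.17) and Hspb1 on day 3 (0.665). In these 325 without the top cell of each list (chosen after seeing the data), the ratios to sham on days 1, 3 and 7 were 4.89, 4.48 and 0.177 for pan-reactive genes, 0.442, 0.886 and 0.437 for sterol synthesis genes and 4.71, 1.14 and 1.78 for immediate-early genes. With the rule on cells of at least 1000 UMIs, thinned to 1000, the shares of these cells were 0.514%, 0.94%, 0.707% and 0.256% in sham and on days 1, 3 and 7. Without called doublets, the ratios to sham on days 1, 3 and 7 were 0.876, 0.811 and 1.33 for immediate-early genes. Without members holding 3 markers of another class, the shares were 0.51%, 0.951%, 0.743% and 0.224% in sham and on days 1, 3 and 7, the ratios to sham on days 1, 3 and 7 were 2.95, 3.01 and 0.128 for pan-reactive genes and 2.92, 2.57 and 0.721 for immediate-early genes, and on the other side of 1 than over all members stood the ratios (10 CPM added) of Btg2 on day 3 (1.36), Ier3 on day 7 (0.778) and Nr4a1 on day 7 (0.406). Without the top cell of each gene (chosen after seeing the data), 150, 127 and 130 genes were lower on days 1, 3 and 7. Without the top cell of each list (chosen after seeing the data), the ratios to sham on days 1, 3 and 7 were 3.47, 2.9 and 0.862 for pan-reactive genes and 1.0, 0.74 and 1.06 for immediate-early genes.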

Other observations

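A few gene groups outside the comparisons above are given as values for the 325 core members. In glycolysis and lactate supply, Hk1, the hexokinase of the brain, was past 2-fold above sham on all 3 days, at 42.4, 119, 96.2 and 109 CPM, which makes 1 of 13, 1 of 14 and, with Pfkp, 2 of 13 genes of the list on days 1, 3 and 7, beside 10.5%, 5.89% and 4.91% of all genes. Of the neural stem cell genes, 3 of 9 were higher on day 3 (Hes5, Id4 and Thbs4) beside 5.89% of all genes, and 1 of 8 on day 7 (Egfr) beside 4.91%. Hes5, a target of Notch signalling, stood at 329.7, 377, 686 and 202 CPM in sham and on days 1, 3 and 7. Id4 stood at 334, 454, 704 and 286 CPM, Thbs4, a thrombospondin of whose day 3 UMIs 1 cell gave 58.1%, at 9.42, 20.4, 96.2 and 59 CPM and Egfr, the receptor for EGF, at 84.8, 76.1, 68.2 and 185 CPM. Among matrix and scar genes 2 of 7 were lower on day 1 (Mmp14 and Plat) beside 6.11%, and 1 of 7, the proteoglycan gene Cspg5, was higher on day 3 beside 5.89%, at 881, 974, 2199 and 1069.6 CPM. Of 20 cell cycle genes, 2 had enough UMIs on day 1, and 1 of them, Ccnd1, which codes for cyclin D1, was higher, beside 10.5% of all genes, at 0, 63.1, 43.4 and 8.42 CPM. A single cell gave 43.6% of the day 1 UMIs of this list and 38.2% of those of Ccnd1. Most of these calls were not seen in the full set of members, where Hes5 on day 3 and Pfkp on day 7 were still higher. Hk1, Id4, Thbs4, Egfr, Cspg5, Mmp14 and Plat passed on no day there, and Ccnd1 was higher on day 7 instead of day 1. In that set alone Tnc, Cdk1, Cenpa and Ube2c were higher and Sox2 lower on day 1, and Fn1 was higher on day 7.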
